A study of Mus musculus with 4 samples.

Results

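A set of 9 genes that mark fetal-like, regenerating intestinal epithelium was followed through single-cell RNA libraries of mouse intestinal epithelium. The genes are Ly6a, Clu, Anxa1, Anxa3, S100a6, Il33, Emp1, Gja1 and Spp1. They were taken by gene symbol from the 31054 features of the expression matrices, and all 9 symbols were found in each of the 4 libraries. All animals carried the Bmi1-GFP reporter, in which green fluorescent protein is made under the control of the Bmi1 locus, and epithelial cells were isolated by flow sorting. The 4 groups were dissected intestine at embryonic day 12.5 (E12.5), small intestine at E17.5, intestine of adult mice without a named treatment, and intestine of adult mice labelled as irradiated. The labels used here do not give the radiation dose, the time after exposure, the number or sex of the animals, or the sorting gates. Each group was 1 library, so no difference between groups has a replicate check, and no test between groups was made.

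After radiation kills the dividing cells of the crypts, surviving epithelial cells rebuild the lining. During that repair, and after infection or transplantation of injured gut, adult epithelium is known to switch on genes that are otherwise typical of the fetal gut. Ly6a (Sca-1) is a surface marker used to sort these cells, clusterin marks rare cells that appear after injury, and the Hippo pathway effector YAP, which acts through TEAD transcription factors, is required for the switch.

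The kept cells, defined as barcodes with at least 500 genes and at most 20% mitochondrial unique molecular identifiers (UMIs), numbered 4226 (E12.5), 4602 (E17.5), 3788 (adult) and 3184 (irradiated adult). Median depth per kept cell was 18637.5, 11499, 3699.5 and 8786 UMIs in the same order, so the adult library was the shallowest. Pairs of libraries shared 1 to 7 kept barcodes. The reporter transcript eGFP was at 22.9, 1.10, 1.72 and 12.5 UMIs per 1000000 UMIs (CPM), whereas Bmi1 itself ranged from 10.3 to 15.7 CPM. The label of intestinal epithelium did not hold for all E17.5 cells. Clusters there carried markers of pancreatic acinar cells (554 cells), pancreatic beta cells (147), smooth muscle (152), fibroblast-like mesenchyme (96) and mesothelium (22). Pancreatic cells are epithelial but not intestinal. For brevity, the term non-epithelial below covers clusters of all these names, the pancreatic ones included. At E12.5 a cluster of 60 cells carried collagen and smooth muscle genes beside epithelial ones, and 42 cells took a fibroblast-like name when clustered at resolution 0.5. In the adult library the summed level of 6 mesenchymal markers was 0.501 CPM with 4 of the 6 at 0, and in the irradiated library it was 0.701 CPM with 3 of the 6 at 0. The summed level of 7 immune markers was 39.1 and 19.2 CPM in these libraries, most of it Ptprc (35.4 and 18.0 CPM).

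The 9 genes lie on separate loci, and all are protein coding in the GRCm38 (mm10) annotation. The surface proteins are Ly6a (ENSMUSG00000075602, chr15:74994877-74998031, minus strand), a lipid-anchored protein of the Ly6 family, Emp1 (ENSMUSG00000030208, chr6:135362545-135383173, plus), an epithelial membrane protein, and Gja1 (ENSMUSG00000050953, chr10:56377330-56402513, plus), a connexin that forms gap junctions. The calcium-binding proteins are Anxa1 (ENSMUSG00000024659, chr19:20373428-20390944, minus) and Anxa3 (ENSMUSG00000029484, chr5:96793339-96845966, plus), annexins that bind membrane phospholipids, and S100a6 (ENSMUSG00000001025, chr3:90612882-90624181, plus), a small intracellular calcium sensor. The secreted proteins are Clu (ENSMUSG00000022037, chr14:65968483-65981547, plus), an extracellular chaperone, Spp1 (ENSMUSG00000029304, chr5:104435118-104441050, plus), known as osteopontin, and Il33 (ENSMUSG00000024810, chr19:29925114-29960718, plus), a cytokine stored in the nucleus and released by damaged cells. Ly6a belongs to a family of closely similar neighbouring genes, so reads may have been split among them, and its counts are uncertain to that degree.

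Promoter sequence was read from RefSeq windows on GRCm38.p6 that run from 250 bases before to 50 bases after each annotated start. Of the 9 symbols 6 matched, with 9 windows between them; Ly6a, Clu and Anxa3 had no entry. Each window was searched on both strands for GGAATG, the core motif bound by TEAD factors, and for TGANTCA, the motif bound by AP-1 factors; no matches of one motif overlapped those of the other in these windows. The TEAD motif was present in 3 of the 9 windows (14.7% of all 32851 windows) and the AP-1 motif in 2 of the 9 (7.81% of all windows). The 4 stretches below hold these matches except that before a second Il33 start, on the gene's own strand, with the 250 bases before the start shown and the matched letters in capitals. The TEAD motif was looked for because TEAD factors are named in the background, and the AP-1 motif was looked for beside it. A match is a description of letters and not of binding.
Emp1 chr6:135362681-135362930, plus strand: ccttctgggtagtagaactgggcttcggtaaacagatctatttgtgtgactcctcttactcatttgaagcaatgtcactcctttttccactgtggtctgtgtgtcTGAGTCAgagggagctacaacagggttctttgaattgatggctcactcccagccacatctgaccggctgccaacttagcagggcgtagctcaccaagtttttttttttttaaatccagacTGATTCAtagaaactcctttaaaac
Gja1 chr10:56377050-56377299, plus strand: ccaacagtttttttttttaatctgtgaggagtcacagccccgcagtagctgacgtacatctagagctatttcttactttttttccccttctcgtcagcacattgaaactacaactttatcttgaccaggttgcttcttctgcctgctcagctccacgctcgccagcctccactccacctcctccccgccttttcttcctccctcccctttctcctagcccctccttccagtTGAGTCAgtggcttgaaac
Anxa1 chr19:20390672-20390921, minus strand: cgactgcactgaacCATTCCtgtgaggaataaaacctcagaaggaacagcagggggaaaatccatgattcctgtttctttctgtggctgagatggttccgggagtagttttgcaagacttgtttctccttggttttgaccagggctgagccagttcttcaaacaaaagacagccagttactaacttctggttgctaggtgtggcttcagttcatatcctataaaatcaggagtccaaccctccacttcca
Il33 chr19:29924863-29925112, plus strand: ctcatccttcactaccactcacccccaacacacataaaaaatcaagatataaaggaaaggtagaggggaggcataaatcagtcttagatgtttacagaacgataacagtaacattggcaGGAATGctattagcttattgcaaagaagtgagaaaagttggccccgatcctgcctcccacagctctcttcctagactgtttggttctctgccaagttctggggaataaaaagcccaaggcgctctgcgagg
Emp1 held AP-1 matches that began at -145 and -25 from the start, and Gja1 held 1 that began at -19. Anxa1 held a TEAD match at -236 and Il33 held 1 at -131, and the window of a second annotated Il33 start (chr19:29945540-29945839, not shown) held CATTCC, the same motif on the other strand, at -107. The windows of S100a6 and Spp1, and the second Emp1 window, held neither set of letters.

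**Figure D1:**
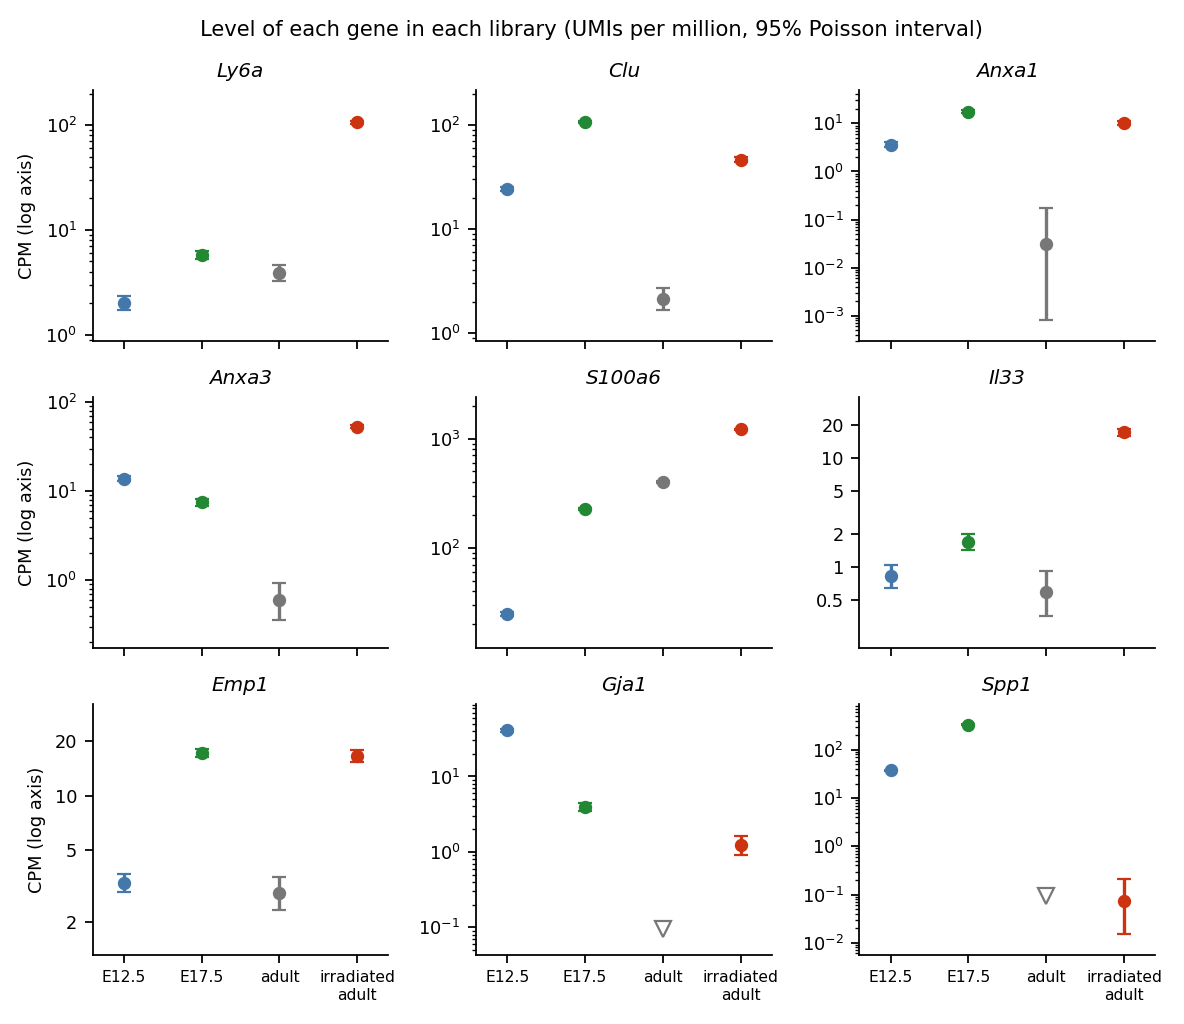
Level of each of the 9 genes in each library. Each panel is 1 gene, the vertical axis is CPM on a log scale, points are the summed UMIs of all kept cells and bars are exact 95% Poisson intervals, which cover counting error only; open triangles mark 0 UMIs, drawn at the limit of 3 UMIs. Ly6a, Anxa3, S100a6 and Il33 were highest in the irradiated adult, Clu, Anxa1, Emp1 and Spp1 were highest at E17.5 (Emp1 with an interval that overlaps the irradiated adult), and Gja1 was highest at E12.5.

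Levels are given as CPM, the UMIs of a gene over all UMIs in the kept cells of a library, with exact Poisson 95% intervals. These intervals, and the exact Clopper-Pearson intervals of cell shares, cover counting error only. Because the levels are summed over cells, more cells with a gene and more UMIs per cell are shown apart only where cell shares or clusters are given.

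Among the surface proteins, Ly6a measured 2.01 CPM (1.73 to 2.33; 179 UMIs) at E12.5 and 5.77 CPM (5.25 to 6.33; 444 UMIs) by E17.5. Adult cells held 3.92 CPM of Ly6a (3.26 to 4.67; 125 UMIs), and irradiated adult cells 106 CPM (103 to 109; 4396 UMIs). The irradiated library stood far above the other 3, and no intervals overlapped. Emp1 was low at E12.5 (3.27 CPM; 2.90 to 3.67) and in the adult (2.88 CPM; 2.32 to 3.54), and high at E17.5 (17.2 CPM; 16.3 to 18.2) and after irradiation (16.6 CPM; 15.4 to 17.9). The intervals overlapped within the low pair and within the high pair of libraries. Gja1 followed another course, with 40.7 CPM (39.4 to 42.0; 3625 UMIs) at E12.5 and 3.93 CPM (302 UMIs) by E17.5, then no UMI in the untreated adult and 1.23 CPM (0.920 to 1.62; 51 UMIs) after irradiation. The absence of Gja1 UMIs in the adult allows a level of up to 0.0940 CPM, so the order for Gja1 was E12.5, E17.5, irradiated adult and adult.

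Among the calcium-binding proteins, Anxa1 measured 3.64 CPM in E12.5 cells and 17.7 CPM in E17.5 cells. Adult cells had 1 UMI of Anxa1 (0.0313 CPM), and irradiated cells 422 UMIs (10.2 CPM; 9.25 to 11.2). Anxa3 measured 13.8 CPM in E12.5 cells, 7.45 CPM in E17.5 cells, 0.595 CPM (0.358 to 0.930; 19 UMIs) in adult cells and 53.0 CPM (50.8 to 55.3; 2193 UMIs) in irradiated cells. Both annexins were lowest in the adult, but Anxa1 peaked at E17.5 and Anxa3 after irradiation. S100a6 measured 24.7 CPM in E12.5 cells, 226 CPM in E17.5 cells, 402 CPM in adult cells and 1217 CPM in irradiated cells. S100a6 was lowest at E12.5, as was Ly6a, and it was the 1 gene of the 9 whose adult level exceeded both fetal levels.

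Among the secreted proteins, Clu measured 24.3 CPM in E12.5 cells and 108 CPM in E17.5 cells. It measured 2.13 CPM (1.65 to 2.70; 68 UMIs) in adult cells and 46.7 CPM (44.6 to 48.8; 1932 UMIs) in irradiated cells. Clu in the irradiated adult lay between both fetal levels over all kept cells, and above both (20.9 and 10.3 CPM) once the Spp1-led and non-epithelial fetal clusters described further on were left out. Il33 had 74 UMIs (0.831 CPM; 0.652 to 1.04) in E12.5 cells, 132 (1.72 CPM; 1.44 to 2.03) in E17.5 cells, 19 (0.595 CPM; 0.358 to 0.930) in adult cells and 711 (17.2 CPM; 15.9 to 18.5) in irradiated cells. The E12.5 and adult intervals of Il33 overlapped, and the irradiated adult was above all 3 others. Spp1 measured 37.7 CPM in E12.5 cells and 333 CPM (25588 UMIs) in E17.5 cells, with no UMI in adult cells and 3 in irradiated cells. Spp1 UMIs were thus almost all in the fetal libraries, and the interval in the irradiated adult (0.0149 to 0.212 CPM) spanned the limit of 0.0940 CPM that the adult count allows.

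Depth differs between libraries, so the share of cells with at least 1 UMI was compared after each cell was thinned to 2000 UMIs, which left out 571, 190, 686 and 505 shallower cells in the order of age and then irradiation. Ly6a was found in 0.438% of thinned E12.5 cells, 1.27% of E17.5 cells, 0.419% of adult cells and 6.46% of irradiated cells (15.6% before thinning). Clu was found in 4.71%, 14.9%, 0.677% and 3.28% of thinned cells in that order (10.1% of irradiated cells before thinning). Anxa3 was found in 3.09%, 1.75%, 0.161% and 3.77% (11.5% before thinning). The order of these shares was less steep than that of the levels for Clu and Anxa3: the irradiated share of Clu was below that at E12.5 although its level was above, and such a share is not read as an order. S100a6 was the widespread gene, found in 4.10%, 21.0%, 20.8% and 44.8% of thinned cells, and in 62.3% of irradiated cells before thinning.

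The other genes were found in few thinned cells of the irradiated library, namely Anxa1 in 0.933%, Il33 in 1.57%, Emp1 in 1.27% and Gja1 in 0.112%. The background was the named cell type with the lowest share of each gene, or level with the lowest, in the same library. These were the Paneth-like cells, with a median depth of 98899 UMIs. They held Ly6a and Anxa3 in 1 of 89 thinned cells each. Clu, Anxa1, Il33, Emp1 and Gja1 were in 0 of 89, which allows a share of up to 3.37%. The library-wide shares of Clu, Anxa1, Il33, Emp1 and Gja1 lie under that limit, and that of Anxa3 lies within the interval of its Paneth-like share (0.0284 to 6.10%), so these shares are not read as a difference from background. The levels of the same Paneth-like cells, which rest on all of their UMIs, were lower than those of the library: 0.140 CPM (up to 0.777) for Anxa1 and for Il33, 0.279 CPM (up to 1.01) for Emp1, 2.93 CPM (1.81 to 4.48) for Clu, 2.79 CPM (1.70 to 4.31) for Anxa3, and no UMI of Gja1 (up to 0.515 CPM). S100a6 was found in 11.2% of those Paneth-like cells. The cells were picked for their low shares of these genes, so their lower levels are a description and not a separate check.

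Most of the 9 genes had a higher level at E17.5 than at E12.5. Ratios were taken as log2 of (CPM + 1) over (CPM + 1) for genes that reached 10 UMIs in at least 1 library of the pair, and 2-fold was the limit for counting a gene. Of the 9 genes 6 were at least 2-fold higher at E17.5 (13.6% of the 17119 genes compared were) and 1 was at least 2-fold lower (13.9% of genes). The median log2 ratio of the 9 was 2.01, against -0.12 for all genes. S100a6 had the log2 ratio 3.14, Spp1 3.11, Clu 2.10, Emp1 2.09, Anxa1 2.01 and Ly6a 1.17. Gja1 had -3.08, a level 10.4-fold lower at E17.5, while Anxa3 (-0.81) and Il33 (0.57) stayed within 2-fold.

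A large share of the E17.5 signal came from clusters that were not ordinary gut epithelium by their leading genes. E17.5 clusters 14 and 16, led by Spp1 together with Neurog3 and with Akr1b7, Bicc1 and Dcdc2a, held 60.2% and 32.1% of all Spp1 UMIs at 11427 and 5737 CPM in 124 and 143 cells. The same clusters held Clu at 1375 and 1253 CPM, 22.3% and 21.6% of its UMIs. Cluster 16, which has Anxa3 among its leading genes, also held 51.1% of Anxa3 UMIs (205 CPM) and 22.4% of Anxa1 UMIs (212 CPM), and cluster 14 held 29.5% of Gja1 UMIs (66.1 CPM). The pancreatic acinar clusters 8 and 9 held a further 17.4% and 28.3% of Clu UMIs, at 612 and 468 CPM. So most Clu and Spp1 UMIs at E17.5 were in cells led by Spp1 or by pancreatic genes.

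Connective tissue and muscle clusters carried other members at E17.5. The fibroblast-like cluster 7 held 36.4% of Il33 UMIs at 94.2 CPM, with Anxa1 at 167, Emp1 at 128 and S100a6 at 1314 CPM. The mesothelial cluster 22, of 22 cells, held Anxa1 at 400 CPM, Anxa3 at 211 CPM and S100a6 at 2856 CPM. In epithelial clusters, 54.5% of all E17.5 Ly6a UMIs were in cluster 2 (128 CPM), whose leading genes Reg4, Tac1 and Tph1 are typical of serotonin-making enterochromaffin cells. The enterocyte cluster 3 held 35.8% of Emp1 UMIs (37.8 CPM) and 27.7% of S100a6 UMIs (384 CPM).

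When the Spp1-led clusters of both fetal libraries were set aside together with the pancreatic, muscle, mesenchymal and mesothelial ones, the difference of S100a6 and Emp1 between E12.5 and E17.5 was as large as before, with levels of 25.3 and 234 CPM for S100a6 and 3.29 and 19.0 CPM for Emp1. Clu turned from higher to lower, with 20.9 CPM at E12.5 and 10.3 CPM at E17.5 (log2 ratio -0.95). Anxa3 then passed 2-fold lower (-2.20), and Spp1 still had a log2 ratio of 1.90 on much lower levels, 2.31 and 11.4 CPM. Il33, within 2-fold in both settings, went from 0.57 to -0.12. Once those clusters were left out, 5 of the genes were at least 2-fold higher (13.2% of all genes were). Anxa3 and Gja1, 2 genes, were at least 2-fold lower (15.6% of all genes).

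At E12.5 the genes were less confined to single clusters, apart from Spp1. Cluster 12, with the pancreatic genes Cpa1 and Pdx1 among its leading genes beside Spp1, held 94.1% of Spp1 UMIs (854 CPM) in 160 cells. Gja1 was detected in all 13 clusters, between 20.5 and 80.9 CPM. Cluster 3, led by Postn, held 58.1% of Ly6a UMIs (12.2 CPM) and 30.4% of Clu UMIs (77.0 CPM). Cluster 4, led by Hoxb13, a gene of the most posterior gut, held Anxa1 at 67.6, Anxa3 at 73.1 and S100a6 at 265 CPM in 68 cells. Emp1 and Il33 were highest in cluster 11 (53.0 and 11.2 CPM), whose 60 cells had Acta2 and Krt5 but also Col3a1 and Col1a1 among the leading genes. The summed mesenchymal and smooth muscle markers stood at 591 and 743 CPM there, and at no more than 16.2 and 20.4 CPM in any other E12.5 cluster.

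**Figure D2:**
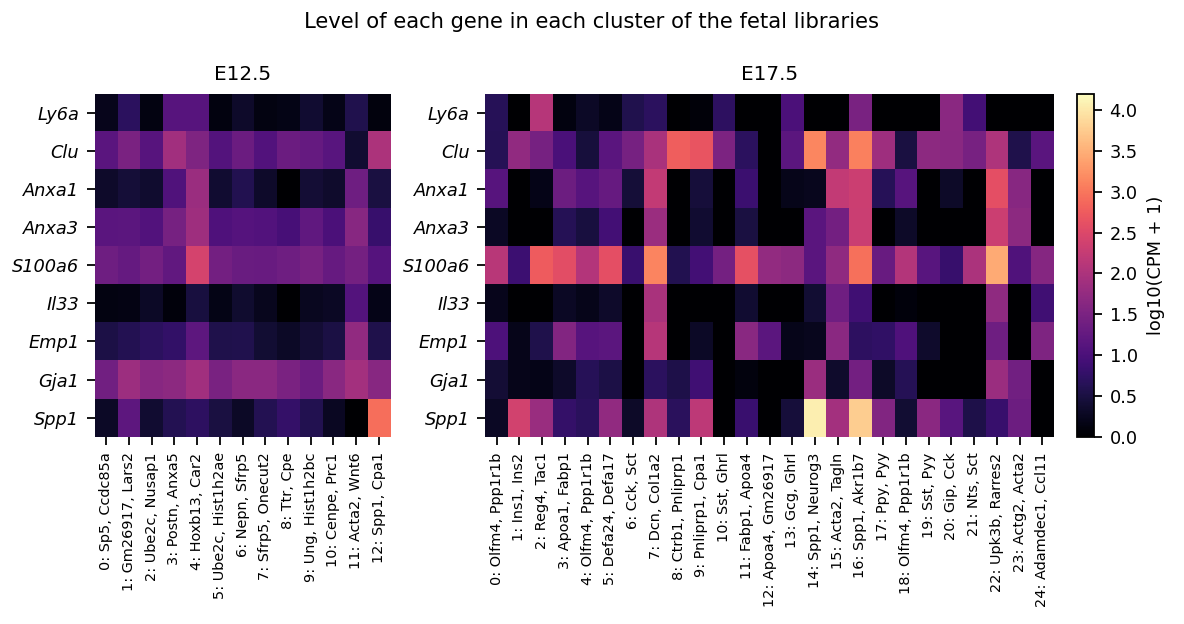
Level of each gene in each cluster of the E12.5 and E17.5 libraries. Columns are clusters, labelled by number and their leading genes, rows are the 9 genes and colour is log10(CPM + 1). Gja1 was spread over all 13 E12.5 clusters, whereas Spp1 and Clu at E17.5 were brightest in clusters 14 and 16 (Spp1 11427 and 5737 CPM).

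The adult levels were mostly below those of E17.5. None of the 9 genes was at least 2-fold higher in the adult (12.2% of 16611 genes were) and 6 were at least 2-fold lower (12.9% of genes were). The median log2 ratio was -2.30 for the 9 and -0.07 for all genes. The log2 ratio was -5.12 for Clu, -4.18 for Anxa1, -2.40 for Anxa3 and -2.23 for Emp1. Against the limit of 3 UMIs in the adult, Spp1 was at least 3538-fold lower and Gja1 at least 41.8-fold lower. Ly6a (-0.46), S100a6 (0.83) and Il33 (-0.77) stayed within 2-fold. Without the Spp1-led and non-epithelial clusters Clu was still lower in the adult (-1.85), as were Anxa3 (-1.05) and Spp1 (-3.63).

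In the adult the few remaining UMIs were unevenly placed. Cluster 10, of 63 cells led by Reg1, Reg3b and Apoa4, held 55.4% of Emp1 UMIs (24.2 CPM) and 73.7% of Il33 UMIs (6.64 CPM) but none of Clu or Anxa1. Cluster 12, named by stem cell markers and led in part by the cycling genes Mki67 and Cenpf, held Ly6a and Emp1 at 3.00 CPM each. S100a6 was concentrated in cluster 4, which held 72.6% of its UMIs at 3546 CPM and is led by S100a6 itself beside Tph1 and Cartpt. Ly6a had 32.0% of its adult UMIs in cluster 15, led by Fabp5 and the hormone gene Gip, at 18.3 CPM (13.1 to 24.9; 40 UMIs).

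The irradiated adult stood above the untreated adult throughout the set. All 8 genes with enough UMIs were at least 2-fold higher in the irradiated than in the untreated adult, against 2.63% of the 15266 genes compared, and 0 were at least 2-fold lower (4.59% of genes). The median log2 ratio was 3.48 for these 8 and -0.03 for all genes. Spp1 is not among the 8, with 3 UMIs against 0. This comparison is one for which the set was proposed with earlier results of these data in view, so the count is a description and not independent evidence of direction.

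Anxa3 had the log2 ratio 5.08 and was 89.0-fold higher (56.8 to 148), which placed it 2nd of 15266 genes by log2 ratio. Ly6a was 27.1-fold higher (22.7 to 32.7; log2 ratio 4.45, 5th of all genes), and Clu was 21.9-fold higher (17.2 to 28.3; log2 ratio 3.93, 8th). Il33 was 28.9-fold higher (18.3 to 48.2; log2 ratio 3.51). Each of these had between 19 and 125 UMIs in the adult, so the width of the intervals comes mainly from that side. Anxa1 had a ratio of 325 (58.1 to 12882) on 1 adult UMI, and Gja1, with none in the adult, was at least 13.1-fold higher. Emp1 was 5.77-fold higher (4.63 to 7.25), and S100a6, with 12826 UMIs in the adult and 50376 after irradiation, was 3.03-fold higher (2.97 to 3.09). No interval of these ratios reached 1, but with 1 library on each side the library and the treatment cannot be told apart.

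**Figure D3:**
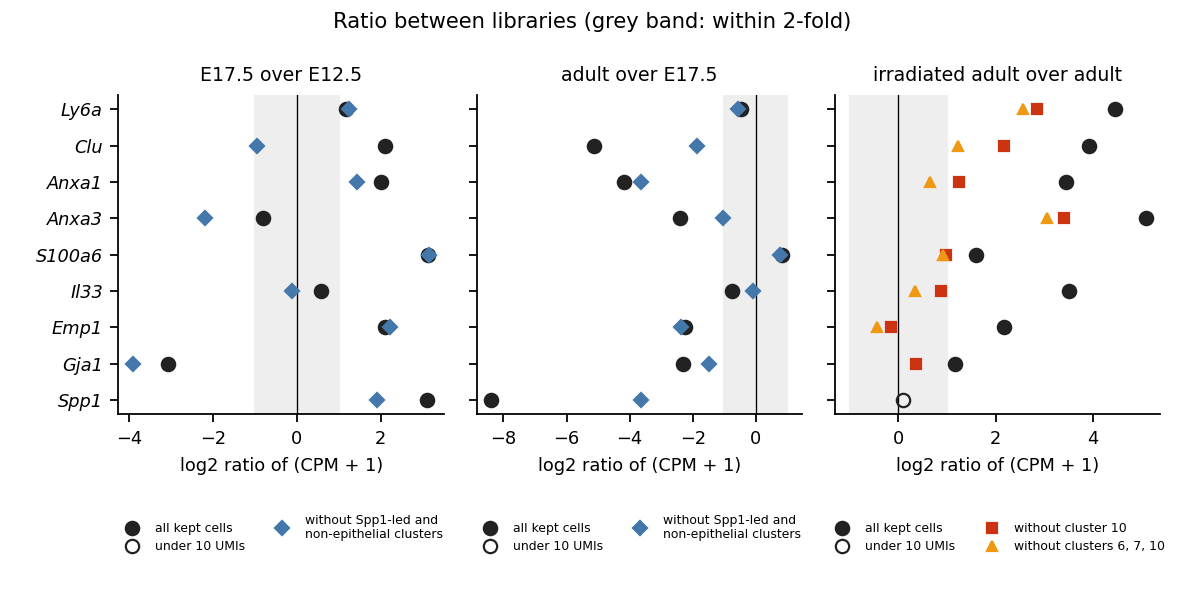
Log2 ratio of (CPM + 1) for each gene in 3 comparisons of libraries. Black points use all kept cells, diamonds leave out Spp1-led and non-epithelial clusters, squares leave out irradiated cluster 10, triangles leave out irradiated clusters 6, 7 and 10, the open circle marks a gene with under 10 UMIs and the grey band spans ratios within 2-fold. After irradiation Ly6a, Clu and Anxa3 stayed above 2-fold in each setting (Ly6a 4.45, 2.84 and 2.55), whereas Emp1 moved from 2.18 to -0.15 and -0.43.

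Most of the UMIs behind these ratios lay in 107 cells. Irradiated cluster 10 held 3.36% of the kept cells and 13.7% of all UMIs, yet it held 72.2% of Ly6a UMIs, 75.8% of Clu, 87.7% of Anxa1, 74.0% of Anxa3, 43.3% of S100a6, 90.3% of Il33, 87.1% of Emp1 and 80.4% of Gja1. Levels there were 560 CPM for Ly6a, 259 for Clu, 65.4 for Anxa1, 287 for Anxa3, 3852 for S100a6, 113 for Il33, 106 for Emp1 and 7.24 for Gja1. Among its 103 cells that could be thinned to 2000 UMIs, Ly6a was found in 44.7%, Anxa3 in 33.0%, Il33 in 21.4%, Emp1 in 20.4%, Clu in 19.4%, Anxa1 in 7.77% and Gja1 in 0.971%. At full depth the shares of its 107 cells were 76.6%, 86.0%, 75.7%, 81.3%, 67.3%, 49.5% and 20.6% in the same order. These cells were deep, with a median of 50518 UMIs, and 8.53% of their UMIs were mitochondrial.

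Cluster 10 was led by Reg3b, an antimicrobial lectin, Ccnd1, a cyclin of G1 phase, Apoa4, an enterocyte apolipoprotein, Gsta1, a glutathione transferase, and Areg, a growth factor of the EGF family. Ccnd1 was at 461 CPM and Areg at 514 CPM there, against 7.95 and 9.21 CPM in the Paneth-like cluster 16 of the same library. Over the whole irradiated library, cluster 10 included, Areg was at 96.1 CPM. The summed level of 6 cycling markers was 540 CPM and that of 7 stem cell markers 447 CPM, against 87.4 and 126 CPM over the whole irradiated library. Its enterocyte name came with 7 of 8 enterocyte markers detected and a score of 0.558. Of those markers only Apoa4 was among its leading genes. UMIs of other cell types were present too: Chgb, an enteroendocrine granule protein, was at 2925 CPM in cluster 10 and 2089 CPM in cluster 11, and Defa24, a Paneth cell defensin, was at 4761 and 2169 CPM. The part of free RNA in these values was not tested.

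Clusters 6 and 7 carried the genes at high levels in shallow cells. Cluster 6, of 77 cells with a median of 1859 UMIs, held Ly6a at 1292 CPM, Clu at 1207, Anxa1 at 155, Anxa3 at 607, S100a6 at 6848, Il33 at 169 and Emp1 at 49.4 CPM. Its leading genes included the hormones Pyy and Gcg beside Ly6d, Lama3, Clu and Ly6a, so Clu and Ly6a partly define it. Cluster 7, of 255 cells with a median of 1167 UMIs, held Ly6a at 156, Clu at 190, Anxa3 at 135 and S100a6 at 1667 CPM. Together these clusters held between 3.20% (S100a6) and 12.6% (Clu) of each gene's UMIs, apart from Spp1, on 1.27% of the library's UMIs.

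Without cluster 10, 4 of the 8 genes were still at least 2-fold higher than in the adult (2.50% of all genes compared were), namely Anxa3 with the log2 ratio 3.41, Ly6a with 2.84, Clu with 2.17 and Anxa1 with 1.25. S100a6 (0.99), Il33 (0.88), Gja1 (0.36) and Emp1 (-0.15) did not. Without clusters 6, 7 and 10, it was 3 of the 7 genes that still had 10 UMIs (2.47% of all genes): Anxa3 (3.06), Ly6a (2.55) and Clu (1.23). Those clusters were left out after their member levels had been seen, and the adult cells were left whole, so these values are descriptions of where the UMIs lie.

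**Figure D4:**
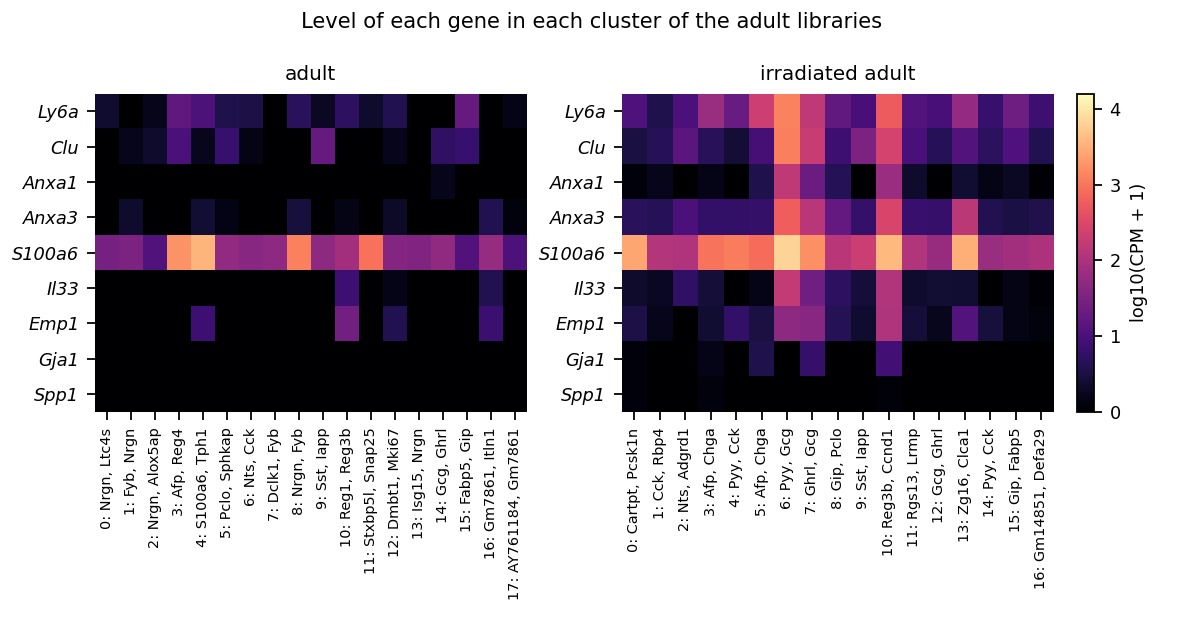
Level of each gene in each cluster of the adult and irradiated adult libraries. Columns are clusters, labelled by number and their leading genes, rows are the 9 genes and colour is log10(CPM + 1). In the irradiated adult most genes were bright in clusters 6 and 10 (Ly6a 1292 and 560 CPM) and S100a6 was bright in many clusters, whereas in the adult S100a6 alone was bright.

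Outside these clusters single genes had places of their own in the irradiated library. The goblet-like cluster 13, of 84 cells, held 13.3% of Anxa3 UMIs at 141 CPM and S100a6 at 3220 CPM. Ly6a was at 214 CPM in cluster 5 and 63.4 CPM in cluster 3, clusters with enterochromaffin genes, and at 9.86 CPM in the largest cluster, 0. S100a6 was at 2620 CPM in that cluster 0, which held 24.3% of its UMIs. Adult cluster 3, which also had Reg4 and Tph1 among its leading genes, held Ly6a at 15.6 CPM (7.50 to 28.8; 10 UMIs).

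Cells named by the same markers in both adult libraries were compared next, as a description, because the clusters were made with these genes among others. In enteroendocrine-like cells (1869 adult and 2526 irradiated), Ly6a was at 8.10 CPM in the adult and 42.3 CPM after irradiation, Clu at 3.85 and 16.5 CPM, and Anxa3 at 0.494 and 10.0 CPM. Without clusters 6 and 7 the irradiated levels were 33.1 CPM for Ly6a, 6.75 CPM for Clu and 4.55 CPM for Anxa3, all still above the adult intervals. S100a6 went the other way, with 1127 CPM in the adult and 851 CPM after irradiation (log2 ratio -0.40), and this difference was -0.04 (869 and 845 CPM) when the clusters that had been set aside from the class, adult clusters 6 and 9 for their leading genes and irradiated cluster 2 for its low UMIs, were put back (2297 adult and 2605 irradiated cells). In tuft-like cells Ly6a was at 0.757 CPM (4 UMIs) in the adult and 11.2 CPM (18 UMIs) after irradiation, and S100a6 was at 146 and 114 CPM. In Paneth-like cells S100a6 was at 13.9 CPM (10.4 to 18.1) in the adult and 101 CPM (94.1 to 109) after irradiation. Cluster 5 made up the largest number of the adult enteroendocrine-like cells and cluster 0 the largest number of the irradiated ones.

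Members were next counted within cells. After thinning to 2000 UMIs, at least 2 of the 9 genes were found in 3.01% of E12.5 cells (110 of 3655; interval 2.48 to 3.62) and 9.32% of E17.5 cells (411 of 4412; 8.47 to 10.2). In adult cells the share was 0.613% (19 of 3102; 0.369 to 0.955), and in irradiated cells 7.54% (202 of 2679; 6.57 to 8.61). E17.5 and the irradiated adult were thus the libraries in which genes of the set met most often in the same cell; their intervals overlapped, and both lay above the other libraries. The E17.5 share was 9.24% (321 of 3474) without clusters of a non-epithelial name. A share without the Spp1-led clusters is not given here, so the E17.5 value is not read as one of gut epithelium alone. At least 4 genes were found in 1.25% of thinned E17.5 cells and 1.61% of irradiated cells, with overlapping intervals, and in 0 of 3102 adult cells, which allows a share of up to 0.0967%. S100a6 took part in many of these cells. Without it the shares with 2 or more genes were 2.24%, 6.62%, 0% and 3.36%.

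Before thinning, 168 of the 3184 irradiated cells (5.28%) had UMIs of 4 or more of the genes. Of these, 91 were in cluster 10, 50 in cluster 6, 14 in cluster 7, 7 in goblet-like cluster 13 and 6 elsewhere. Their median depth was 36011.5 UMIs, against 9329.5 in cells with 1 to 3 of the genes and 5581.5 in cells with none. Summed cycling markers were at 537 CPM in the cells with 4 or more, 13.1 CPM in those with 1 to 3 and 9.90 CPM in those with none, and stem cell markers at 439, 68.7 and 89.3 CPM. Enteroendocrine markers were at 4280, 25483 and 13356 CPM and Paneth markers at 29059, 141720 and 59243 CPM. Putative doublets were 7.14%, 5.38% and 3.20% of the cells in that order. The part of depth and of doublets in these differences was not tested.

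Of the 9 genes, 8 had been among the variable genes used for clustering. When all 9 were left out of the genes used to cluster, 88 of the 168 cells fell in 1 cluster of 104 cells, all of them from cluster 10, and 55 fell in a cluster of 277 cells that held all 77 cells of cluster 6 and 200 of cluster 7. A further 10 fell in a goblet-like cluster of 87 cells.

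Co-detection of pairs was compared with the number of cells that the shares of both genes give within 10 bins of cell depth. Of the 36 pairs in the irradiated adult, 29 had an expected number of at least 1 cell, and 17 of those were found at 2 or more times it. Over the other genes of the library, 4.38% of 107870 member and partner combinations passed the same limit, from 0% of partners for S100a6 to 10.4% for Gja1. Genes found in many cells, such as S100a6, cannot reach high ratios. How many of these combinations could have reached the limit is not given here, so 4.38% and 17 of 29 are not like for like. The ratio of observed to expected ranged from 1.14 to 4.03 over the 29 pairs, with a median of 2.13.

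Ly6a and Clu were found together in 160 cells where 74.8 were expected (2.14 times). Clu and Anxa1 met in 64 cells where 20.8 were expected (3.08 times), and Anxa1 and Il33 in 49 where 15.1 were expected (3.24 times). Il33 and Emp1 met in 74 cells where 25.6 were expected (2.89 times). The highest ratio, 4.03, was that of Anxa1 and Gja1, on 16 cells where 3.97 were expected. Pairs with S100a6 had ratios of 1.14 to 1.35, the gene being in 62.3% of all cells.

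A ratio cannot exceed what the rarer gene of a pair allows, so each pair has a highest possible value. Over all kept cells 21 of the 29 pairs could have reached 2 times the expected number. When the expected number was taken within cell classes and depth bins, 9 of 31 counted pairs could have reached it and 0 did, with ratios from 0.988 to 1.88. Without clusters 6, 7 and 10, which were chosen after their member levels had been seen, 12 of 20 counted pairs could have reached it and 3 did. Within cluster 10 the genes were in so many cells that 1 of 28 pairs could have reached 2 times (median highest possible ratio 1.23), so the observed ratios there, 1.01 to 1.38, say little about co-detection.

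**Figure D5:**
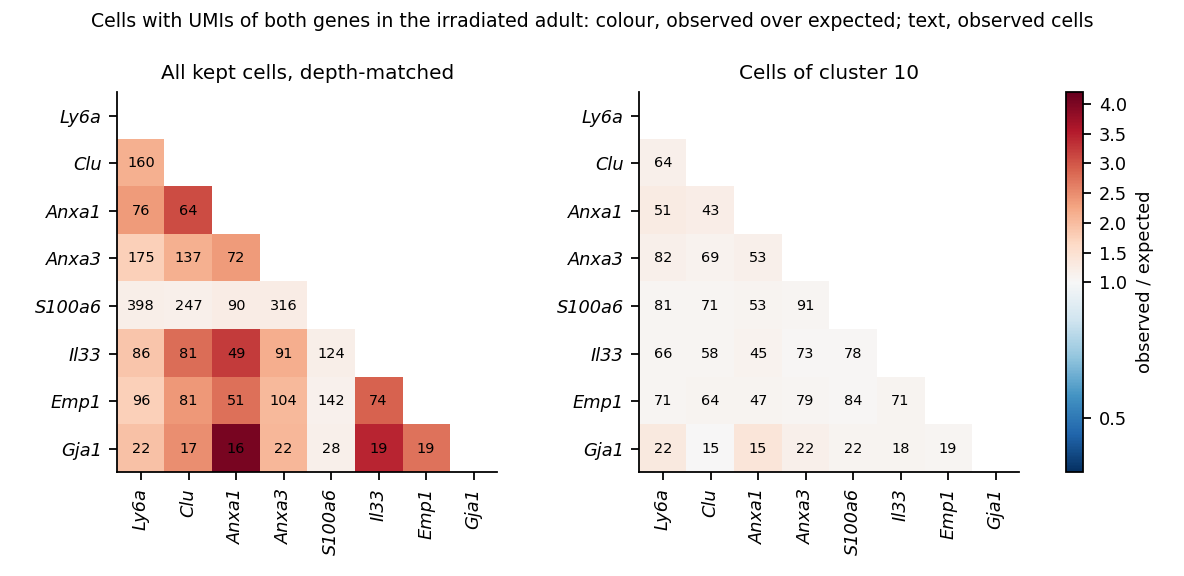
Cells of the irradiated adult with UMIs of both genes of a pair. Rows and columns are the 8 genes with over 3 UMIs, the printed number is the count of cells with both, and colour is that count over the number expected from each gene's share, within 10 depth bins on the left (all 3184 kept cells) and within cluster 10 on the right (107 cells). Pairs were up to 4.03 times the expected number over all cells; within cluster 10 the genes were in so many cells that 1 of 28 pairs could have reached 2 times, so the panels are not to be set against each other.

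Partners outside the set were ranked by the same ratio. For Clu, Anxa1 and Anxa3 the list included Ly6d, another surface protein of the Ly6 family, found with Clu in 80 cells where 21.6 were expected (3.71 times), with Anxa1 in 49 cells (5.17 times) and with Anxa3 in 81 cells (2.88 times). For Anxa3 the others were Lama3, a laminin chain of the basement membrane (2.59 times), and Fer1l6 (2.58 times). For Ly6a they were Egflam (4.11 times), Cpne4 (4.04) and Igfbp2 (3.52), and for Clu also Mir670hg (4.17) and Sh3bp1 (4.00). For Anxa1 they included Ces2f (5.26) and Rgs5 (5.12). For Il33 they were Cyp3a25 (3.75), Ctgf (3.73), a known target of YAP, and Alpi (3.73), the alkaline phosphatase of enterocytes, and for Emp1 Ifit1bl2 (3.48), Cyp3a25 (3.34) and Lct (3.23), the lactase gene. The first partners of S100a6 were Nr2f1, found with it in 43 cells where 28.6 were expected, F10 (1.46) and Dpf1 (1.46), and those of Gja1, Papln, Hist1h2ak and Anks1b, rested on 5 cells each.

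Over the 69 clusters of at least 50 cells in all 4 libraries, genes with the most similar pattern were named for each member by Pearson's r of log2(CPM + 10), among 8097 genes. Clusters of 1 library share its depth and free RNA, so these values are descriptions. Anxa3 was closest to Plaur, the urokinase receptor (r = 0.87), and to S100a16 (0.79). Ly6a was closest to Serpinb5 (0.82), Slc4a11 (0.78) and Il1rn (0.77), and Il33 to Pmm1 (0.84), Akr1b8 (0.84) and Slc4a11 (0.83). Emp1 was closest to Pdlim2 (0.87), Ahnak (0.86) and Il33 (0.79), and Anxa1 to Emp3 (0.86), Cryab (0.79) and Ahnak (0.79). Gja1 was closest to Mex3a (0.93), Cdh3 (0.93) and Cgnl1 (0.92), and Spp1 to Dcdc2a (0.90), Gpm6b (0.86) and Bicc1 (0.83). Clu was closest to Gsta3 (0.77), Cbs (0.73) and Muc1 (0.73), and S100a6 to S100a14 (0.84), Krt19 (0.79) and Bhlhe40 (0.79).

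Within the set, Il33, Anxa1, Anxa3 and Emp1 formed the most similar group, with r between 0.63 and 0.79 over their pairs. Clu was nearest to Spp1 (0.66), and Ly6a to Anxa3 (0.63) and S100a6 (0.63). Gja1 had r of 0.36 or less with every other member, down to -0.26 with S100a6.

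A wider list of 20 genes tied to regenerating and fetal epithelium was mostly higher after irradiation. The list was fixed with earlier results of these data known, so its count is a description and not independent evidence of direction. Of its 18 genes with enough UMIs, 12 were at least 2-fold higher and 0 lower (2.63% and 4.59% of all genes), with a median log2 ratio of 1.43. Among secreted ligands, Areg was at 19.8 CPM in the adult and 96.1 CPM after irradiation (log2 ratio 2.22) and Ereg at 0.376 and 2.71 CPM (1.43); both are growth factors of the EGF receptor. Among receptors and surface proteins, Plaur was at 0.345 and 7.71 CPM (2.70), F3, the tissue factor, at 1.38 and 8.41 CPM (1.98), and Tnfrsf12a at 32.7 and 89.4 CPM (1.42). Il1rn, the antagonist of the interleukin 1 receptor, had 2 UMIs in the adult and 604 after irradiation (0.0627 and 14.6 CPM; 3.88). Mmp7 (2.02), Sprr1a (1.49), Ctgf (1.48, on 1 adult UMI), Anxa2 (1.41) and Krt7 (1.08) were also among the 12. Mmp7 is also a Paneth cell gene, and the summed Paneth markers stood at 59939 CPM in the adult and 108904 CPM in the irradiated adult.

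Some genes of the wider list differed less. The YAP target Cyr61 (-0.29), Cd44 (-0.21), Cxadr (0.30) and Basp1 (-0.98) stayed within 2-fold. Without cluster 10 the list held 7 of 16 genes at least 2-fold higher, among them Il1rn, Krt7, Mmp7, Plaur, Tnfrsf12a and Anxa5, and without clusters 6, 7 and 10 the same 7 of 16 (2.50% and 2.47% of all genes). From E12.5 to E17.5, 6 of its 19 genes were at least 2-fold higher and 5 lower (13.6% and 13.9% of all genes). From E17.5 to the adult 4 were higher and 5 lower (12.2% and 12.9% of all genes). The receptors of these ligands were looked up as well. Il1rl1, the receptor of Il33, and Fpr1 and Fpr2, formyl peptide receptors bound by Anxa1, had no UMI in either adult library. Of the 16 listed receptors and binding partners 11 had enough UMIs, and 0 of them were past 2-fold in either direction after irradiation (median log2 ratio 0.25). Over all genes 2.63% were higher and 4.59% lower, so 0 of 11 is near the share over all genes. Osteopontin binds integrins and Cd44, and the values were 0.43 for Itgav, 0.25 for Itgb1, 0.42 for Itgb5 and -0.21 for Cd44. S100a10 (0.50) and S100a11 (0.68), partners of annexins, were also within 2-fold.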

How the data were processed

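The authors deposited, for each of the 4 libraries, a sparse matrix of UMI counts per gene and barcode, made with Cell Ranger 3.1.0 on mm10 per the submitters' processing notes; the libraries were made with 10x Genomics 3' chemistry version 3 and sequenced on a HiSeq, per the labels' protocols. Feature identifiers matched the GRCm38 gene annotation for 30934 of 31054 features (99.6%). The members, gene lists and marker lists were chosen with earlier results of these data known.

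Cells were barcodes with 500 or more genes and no more than 20% mitochondrial UMIs: 4226, 4602, 3788 and 3184 cells with 89064972, 76926950, 31908663 and 41384037 UMIs at E12.5, E17.5, adult and irradiated adult. UMIs were summed per library and expressed as CPM of all kept UMIs, with exact Poisson 95% intervals; shares have exact Clopper-Pearson 95% intervals, and ratios of summed UMIs exact conditional binomial intervals. A count of 0 was given a limit of 3 UMIs or cells. Ratios used a pseudocount of 1 CPM, which understates the change of low genes, and genes that reached 10 UMIs in 1 or both libraries. With 1 library per group no test was made.

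Each library was clustered alone (2000 variable genes, 30 principal components, 20 neighbours, Leiden at resolution 1, scanpy 1.11.5), and clusters were named from 19 marker lists where at least 3 markers were detected and the leading genes did not go against the name. Scrublet's own threshold called 0, 26, 3 and 1 cells, which is too few to be of use, so doublets were kept and removal of the highest-scoring cells at 0.8% per 1000 barcodes was an alternative. For pairs of genes the expected number of cells was the product of both shares within 10 bins of depth, counted where it was at least 1 cell. Other genes were named by fixed rules: the 3 genes with the highest Pearson correlation with each member over clusters of at least 50 cells, among genes reaching 50 CPM in 1 cluster; the 3 partners with the highest co-detection ratio among genes in at least 20 cells with at least 5 cells holding both; and listed genes past 2-fold after irradiation. Mitochondrial, ribosomal protein, predicted and sex-linked genes were left out of that naming.

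Alternatives were every deposited barcode, a stricter filter (1000 genes, 10% mitochondrial UMIs), doublet removal, other scalings (mean CPM per cell; TMM factors of edgeR 4.0.16; totals without mitochondrial and ribosomal protein genes), pseudocounts of 0.1 and 10 CPM, minimum counts of 1 and 50 UMIs, other thinning depths and bins, and resolutions 0.5 and 2. The calculation was tested on simulated data. Python 3.11.15 and R 4.3.3 were used. Protein comparisons were not made here. The values of 1 gene that these rules would name are not reported here.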

Additional observations from a re-analysis of the deposited data

Results flagged for a closer look

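S100a6 went in different directions in different cell classes after irradiation. The log2 ratio of irradiated over untreated adult was 2.78 in Paneth-like cells, -0.40 in enteroendocrine-like cells and -0.35 in tuft-like cells, and it was the opposite sign that drew attention. The difference between the classes was not tested, since each class comes from 1 library on each side. In Paneth-like cells the value rests on 54 UMIs in the adult and 726 after irradiation, and in tuft-like cells on 770 and 182 UMIs. The median depth of the Paneth-like cells was 2880.5 UMIs in the adult and 98899 UMIs in the irradiated adult. The part of depth and of free RNA in this value was not tested. With adult clusters 6 and 9 and irradiated cluster 2 put back into the enteroendocrine-like class the value there was -0.04.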

How the results depend on the processing

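No paired analysis was possible because each group was 1 library. The settings that leave out named clusters or S100a6, and the one at 2000 UMIs per cell, were chosen after seeing the data. Of 345 alternative ratios 222 were counted as the same as the value reported, 120 as moved and 3 as reversed. The reversed ratios were Clu in E17.5 over E12.5 without Spp1-led and non-epithelial clusters (-0.95) and Emp1 in irradiated over adult. Emp1 was at -0.15 without cluster 10 and at -0.43 without clusters 6, 7 and 10. Il33 in E17.5 over E12.5 also changed sign in the setting named for Clu, from 0.57 to -0.12, but was counted as moved. A ratio counted as the same could still differ: Anxa1 in irradiated over adult was 3.44 as reported and 1.25 without cluster 10. The count of members past 2-fold changed by over 1.5 times in these settings: 1 (S100a6) higher in adult over E17.5 with the stricter cell filter (11.8% of genes), 2 lower in E17.5 over E12.5 without Spp1-led and non-epithelial clusters (15.6%), and 4 and 3 higher in irradiated over adult without cluster 10 and without 6, 7 and 10 (2.50% and 2.47%). In the other settings it was 7 or 8 higher in irradiated over adult, 4 to 8 lower in adult over E17.5 and 5 to 7 higher in E17.5 over E12.5. The shares of all genes moved too, from 0.871% to 6.21%, 5.17% to 21.0% and 5.39% to 21.5% in that order. The ends of these ranges came from the pseudocounts of 10 and 0.1 CPM. The share of cells with 2 or more members depends on depth. Thinned to 1000 UMIs it was 0.917% (E12.5), 6.22% (E17.5), 0.135% (adult) and 6.88% (irradiated, then above E17.5); thinned to 4000 it was 6.57%, 14.1%, 1.01% and, irradiated, 11.8%; without thinning it was 40.7%, 35.6%, 2.11% and 22.5%. It was 6.23% in the irradiated adult with every barcode, 3.18% there without clusters 6, 7 and 10, 1.05% in the adult with the stricter filter, and 2.24%, 6.62%, 0% and 3.36% without S100a6. Pairs at 2 or more times the expected number were 17 as reported, 10 with the stricter filter, 10 after thinning, 3 without clusters 6, 7 and 10, and 0 within classes and bins. Within classes 9 of 31 pairs could have reached that number; the cause of the other drops was not tested. A pseudocount of 0.1 CPM put 6.21% of genes at least 2-fold higher and 8.40% lower after irradiation, and 1 of 10 CPM put 0.871% and 1.15% there. Totals without mitochondrial and ribosomal protein genes moved the median of all genes from -0.07 to -0.17 in adult over E17.5. Depth limits the ratios to the adult, which had 0 to 125 UMIs of every member but S100a6.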

Other observations

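The relatives of the members in the same gene families also differed after irradiation, in part; of all genes compared 2.63% were at least 2-fold higher and 4.59% lower. Of the Ly6 family, Ly6d had no UMI in adult cells and 684 in irradiated cells, at least 176-fold higher, and Ly6c1 had 0 and 43 UMIs, at least 11.1-fold higher, while Ly6e (0.76) and Ly6g6c (-0.07) stayed within 2-fold on the log2 scale. Of the 9 other annexins, 3 were at least 2-fold higher: Anxa8, with 0 and 565 UMIs (at least 145-fold higher), Anxa10 (log2 ratio 1.62) and Anxa2 (1.41). Of the 10 measured S100 genes, S100a16 (1.29), S100a14 (1.24) and S100a3 (1.21) were at least 2-fold higher and S100g, an intestinal calcium-binding protein of absorptive cells, was lower (-2.37). Emp3 was 13.8-fold higher (log2 ratio 2.49), Emp2 was not past 2-fold (0.55), and none of the 5 measured connexins was. In the interleukin 1 family, Il1rn was higher (3.88) and Il18 lower (-1.06). Of the osteopontin family, Ibsp, Dmp1 and Mepe were looked up, and none had a UMI in either adult library.

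Without irradiated cluster 10, 1 of 3 measured Ly6 genes (Ly6d), 2 of 9 annexins (Anxa5 and Anxa8) and 0 of 8 S100 genes were at least 2-fold higher than in the adult (2.50% of all genes were). Without clusters 6, 7 and 10 the counts were 0 of 3, 1 of 8 (Anxa5) and 0 of 8 (2.47% of all genes).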
